A study of Mus musculus with 2 samples.

Results

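Purine nucleotides reach a cell by synthesis from small molecules or by salvage of free bases, and the genes described here encode enzymes of both routes. The group holds 10 genes of the 19504 named on the arrays: Hprt, Aprt, Ppat, Gart, Paics, Adsl, Atic, Impdh1, Impdh2 and Gmps. Its members were found as the gene probes of both scanner files that carry a member's symbol or its older form (Hprt is listed as Hprt1), which gave 18 of 41174 probes. The group was chosen by measured values: Hprt, often used as a constant reference gene, had a much lower processed signal on day 6 than on day 0 in these same data, and the other enzymes were taken as its pathway. The day 6 against day 0 differences below are therefore descriptions, and none of them is an independent test.

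The study compared 2 RNA samples of R1, an embryonic stem (ES) cell line from mouse. Day 0 cells were undifferentiated and grew with 15% serum and 1000 U/ml of leukaemia inhibitory factor (LIF) on fibroblast feeders that had been made unable to divide. Day 6 cells came from embryoid bodies, which are cell aggregates, in a direct neural differentiation, and the labels call them neural precursors. The sources used here do not describe the medium of day 6, and no genetic change or further agent is named for either group. Each group had 1 array, so there is no replicate check, no test between groups, and a difference describes these 2 RNA samples only.

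The de novo route starts from phosphoribosyl pyrophosphate (PRPP), builds the purine ring on it step by step and ends at inosine monophosphate (IMP), which then branches to AMP and to GMP. Salvage instead joins a ready base to PRPP: Hprt uses hypoxanthine and guanine, and Aprt uses adenine. Dividing cells, ES cells among them, need purines for DNA and RNA, and loss of HPRT function in people causes Lesch-Nyhan disease, with uric acid overproduction and a severe neurological disorder.

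The labels and the markers went together. On day 6, all 9 measured pluripotency markers were lower by 2-fold or more, while 5 of 7 neural progenitor and 6 of 7 neuronal markers were higher by as much. Feeder fibroblast markers were mixed: of 12, 6 were lower on day 6 by 2-fold or more, and 1 was higher. Their summed signal was 319000 intensity units at day 0 against 282262 at day 6. Vim alone gave 176373 and 249056 of these units, and signals of different probes are not comparable. The sum is therefore no measure of feeder RNA. Every one of the 12 was well above background on day 0, and Lox alone was not on day 6. Among the collagens, Col1a1 had 46224 units on day 0 and 2700 on day 6, Col1a2 had 22278 and 8621, and Col3a1 had 3380 and 4589. The part of feeder cells in the differences below was not tested. In RNA from a mixed culture, fewer cells of a type and less RNA per cell cannot be told apart. The arrays were read with well above background signal in 61.3% and 65.3% of gene probes.

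Of the 18 probes, 17 were well above background on both arrays and 1 on neither. Folds are given after each array was scaled to its 75th percentile, 3758 intensity units for day 0 and 4388 for day 6. A fold therefore differs from the ratio of the signals printed. Among the members, the brightest probes of Ppat and Impdh2 are 2-fold lower only after this scaling. Each log2 difference carries the scanner software's error (± SD), which for bright spots follows from a fixed setting of 0.1 and does not hold the variation between cultures. A gene is represented by its brightest probe unless another is named. All 10 genes had a difference below 0, against 53.7% of the 14966 genes measured. Of the 10, 6 were lower on day 6 by 2-fold or more, beside 20.9% of all measured genes, and 0 were higher by as much, beside 20.1%. The median difference of the members was -1.13, and that of all genes -0.095. Counted by probe, 9 of the 17 passed 2-fold downward, beside 19.0% of all probes, and 1 passed it upward, beside 21.3%. The rule used this contrast, so these counts carry no weight of their own.

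**Figure D1:**
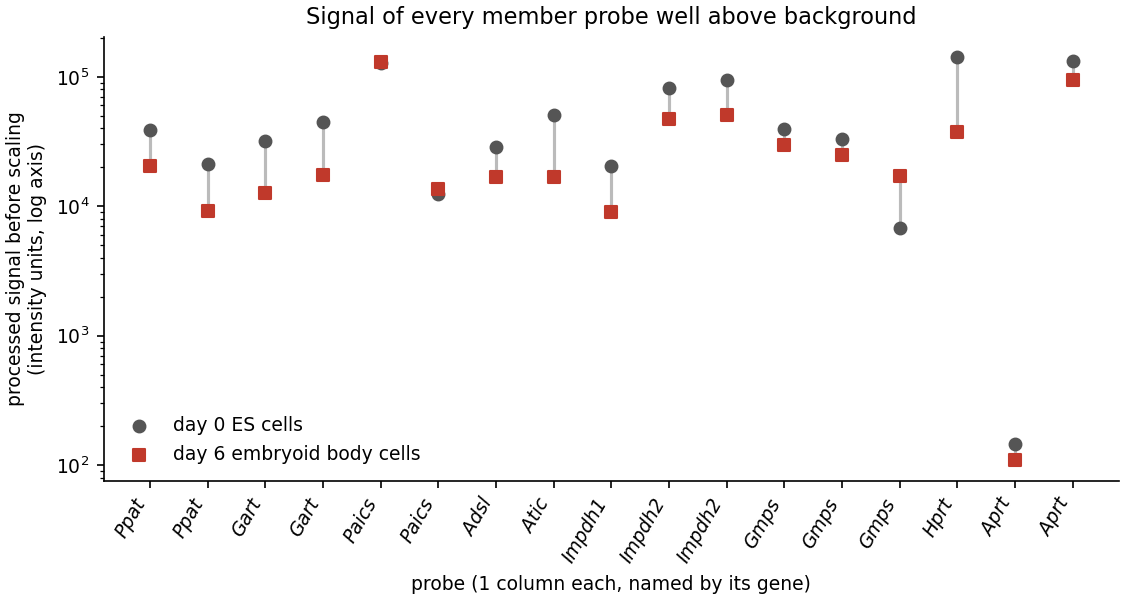
Processed signal of the 17 member probes well above background, 1 column a probe, before scaling and on a log axis, with day 0 as grey circles and day 6 as red squares. The day 6 square lies below the day 0 circle for Hprt (142293 and 37545), and above it for the Gmps probe that ran the other way (6814 and 16979). The heights of different probes are not comparable.

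Hprt, the salvage enzyme that makes IMP from hypoxanthine and GMP from guanine, had the largest difference of the group. Its single probe was spotted at 10 places on each array, which gives a direct view of measurement error within an array. The 10 spots ranged from 134797 to 148266 intensity units on day 0, with a median of 143032, and from 36191 to 39436 on day 6, with a median of 37391. No day 6 spot came near a day 0 spot. After scaling, the lowest day 0 spot was still 3.99-fold above the highest day 6 spot. The spots of an array had an SD of 0.043 log2 units on day 0 and 0.041 on day 6, and the same array position gave differences from -2.20 to -2.04. The mean difference was -2.15 ± 0.20, which is 4.42-fold lower on day 6. Only 9.47% of the genes measured had a difference this low or lower, and the share at least 4-fold lower was 10.2% of all genes. Spots of 1 array share the same RNA, so this precision says nothing of how far another culture would differ.

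**Figure D2:**
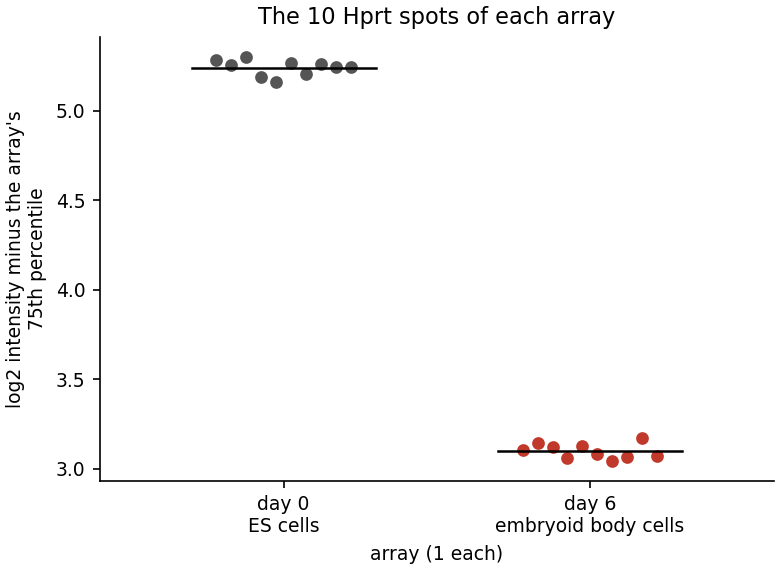
The 10 Hprt spots of each array, as log2 intensity minus the 75th percentile of the array, with the mean as a line. Day 0 spots lie between 5.16 and 5.30 and day 6 spots between 3.04 and 3.17, with no overlap.

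The Hprt probe lies at chromosome X, 48113832 to 48113891, in mouse build mm7, and its coordinates run in the direction of the gene. Phf6, the next protein-coding gene on the left in the RefSeq table, had 7305 units on day 0 and 19684 on day 6, which is 2.31-fold higher on day 6. Plac1, the next on the right and a gene known from placenta, was well above background on day 0 only (181 against 69.7 units) and was at least 2.48-fold lower. Hprt's neighbours thus lay on opposite sides of 0. Chromosome X had 520 measured genes, of which 21.5% were lower by 2-fold or more and 24.4% higher, with a median difference of 0.015. For the autosomes these shares were 20.8% and 20.0%, and the median was -0.097. On chromosome X, 62 genes had a difference below that of Hprt.

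Aprt, the adenine salvage enzyme, was lower by less. Its bright probe had 132798 units on day 0 and 93872 on day 6, a difference of -0.72 ± 0.20 or 1.65-fold. The other Aprt probe, designed on a different sequence record, read close to the lowest signal called well above background, with 147 and 109 units, and gave -0.66 ± 0.37. The probes thus gave like differences from very unlike signals. The difference of Hprt minus that of Aprt was -1.42 ± 0.29 on the log2 scale, a 2.68-fold ratio between their day 6 to day 0 changes. Among the other genes of salvage and nucleoside phosphorylation, adenosine kinase (Adk), which makes AMP from adenosine, had 109888 and 58876 units and was 2.18-fold lower. Dck, Dguok and Mtap lay within 2-fold, with differences of 0.32, -0.21 and -0.001, the probes of Dck ranging from -0.50 to 0.49. With Hprt, by which the group was chosen, and Adk, 2 of the 6 measured genes of that list passed 2-fold downward and 0 upward. Of all measured genes, 20.9% passed it downward and 20.1% upward, and these shares stand beside each list count below.

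Along the de novo route to IMP, the differences ranged from almost none to over 3-fold. Of 6 measured genes, 5 of them members, 3 (Ppat, Gart and Atic) passed 2-fold downward and 0 upward, and the median was -1.06. Ppat catalyses the committed first step, the transfer of an amide nitrogen to PRPP. Its brighter probe had 38746 units on day 0 and 20380 on day 6, a difference of -1.15 ± 0.20, and its other probe had 21267 and 9150, a difference of -1.44 ± 0.20. The probes lie 4489 bases apart in the build of the files and both were over 2-fold lower.

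Gart, a multifunctional enzyme of the early and middle steps, was 3.03-fold lower by its brightest probe, with 44787 and 17266 units. A probe placed 9112 bases further along the gene had 31816 and 12656 units, which is 2.93-fold lower. Gart is known to give a full transcript and a shorter one that ends within an intron, and the brightest probe has a stop codon in every sense frame, so it cannot lie wholly in coding sequence. Which transcript it reads was not tested. The differences of -1.60 and -1.55 at the 2 places were closer to each other than their software error of 0.20. The remaining Gart probe was well above background on neither array, and its coordinates run against the direction of the gene. Pfas, another enzyme of the de novo route and no member of the group, had 10766 and 7375 units, a difference of -0.77 ± 0.20.

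Paics, which joins a carboxylase and a ligase activity, stood apart from the other members. Its bright probe had 128250 units on day 0 and 129648 on day 6, and its other probe 12472 and 13608, so both signals were slightly higher on day 6 before scaling. After scaling the differences were -0.21 ± 0.20 and -0.10 ± 0.20, and the first became 0.18 with quantile normalization and 0.20 in the authors' deposited value table, so its sign depends on the scaling. Paics and Ppat are neighbours in head-to-head order, and the RefSeq gene table of GRCm38.p6 has them overlapping at their starts by 277 bases. The difference of Ppat minus that of Paics was -0.94 ± 0.29 log2 units, a 1.92-fold ratio between their changes. That contrast is between the brightest probes. The other 60-base probe of each of Ppat, Paics and Gart is printed here, with differences of -1.44, -0.10 and -1.55, as the repeat readings of these genes. Each was picked because it holds an open sense frame and was taken to be coding, which was not checked against an annotation. Intervals are in mm7 as the files give them, and that of the Paics probe is longer than the probe itself.
Ppat, chr5:76849633-76849692, minus strand: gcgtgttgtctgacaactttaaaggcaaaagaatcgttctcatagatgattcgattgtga
Paics, chr5:76890992-76892667, plus strand: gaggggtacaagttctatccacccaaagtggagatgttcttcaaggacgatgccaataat
Gart, chr16:91674731-91674790, minus strand: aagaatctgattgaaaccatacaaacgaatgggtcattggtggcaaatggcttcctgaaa

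Adsl acts in the route to IMP and again in the branch to AMP. It had 28417 units on day 0 and 16872 on day 6, a difference of -0.98 ± 0.20, just short of 2-fold. Atic, which closes the purine ring at the last steps to IMP, had 50229 and 16667 units and was 3.52-fold lower, the largest difference of the de novo members. Atic and Hprt both make IMP, from different starting points. With Gart, they had the 3 lowest differences of the members. Atic and Gart came to -1.58 and -1.37 with quantile normalization. The genes next to the members were mixed. Of 18 neighbours that are no members, 15 were measured. Of these, 3 passed 2-fold downward, 2 upward and 10 neither, beside 20.9% downward and 20.1% upward of all measured genes. Those lower were Plac1, Cdt1 beside Aprt, a replication licensing factor with 110827 units on day 0 and 55451 on day 6, and Fn1 beside Atic, the fibronectin gene of the feeder list, with 14697 and 3898. Son, which lies head to head with Gart with 851 bases between them, had a difference of -0.24, and Dnajc28, on the other side of Gart, was 2.87-fold higher.

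**Figure D3:**
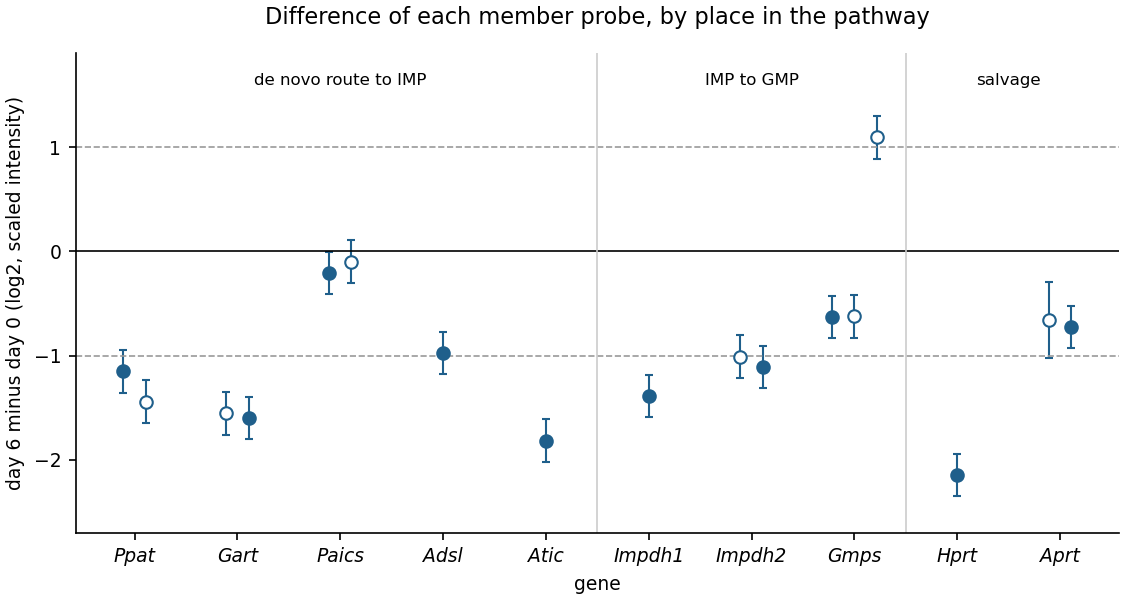
Day 6 minus day 0 difference in scaled log2 intensity of each of the 17 probes, with genes in pathway order, filled circles for the brightest probe of a gene and bars for the software error (SD). Dashed lines mark 2-fold. Hprt is lowest at -2.15, both Paics probes lie near 0, and 1 Gmps probe lies at 1.09 while the others of that gene lie near -0.63.

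The branch from IMP to GMP begins with IMP dehydrogenase, which has the isoforms Impdh1 and Impdh2. Impdh1 had 20298 units on day 0 and 9069 on day 6, a difference of -1.39 ± 0.20 or 2.61-fold. Impdh2, the form known to prevail in dividing cells, had 93851 and 50801 units by its brighter probe and 81944 and 47523 by the other, differences of -1.11 ± 0.20 and -1.01 ± 0.20. The difference of Impdh2 minus that of Impdh1 was 0.28 ± 0.29 log2 units, within the software error. The Impdh2 probes overlap, so they read nearly the same stretch of RNA and are close to a repeat measurement. The sequences are shown with the 44 shared bases in capitals, and the file gives the first probe an interval shorter than its 60 bases.
Impdh2, chr9:108277354-108277404, plus strand: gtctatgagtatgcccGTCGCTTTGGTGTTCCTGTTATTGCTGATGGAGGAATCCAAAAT
Impdh2, chr9:108277361-108277420, plus strand: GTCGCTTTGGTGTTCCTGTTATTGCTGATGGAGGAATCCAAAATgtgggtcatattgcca

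Gmps completes GMP by adding an amino group, and its probes disagreed. The brightest had 39748 units on day 0 and 29964 on day 6, a difference of -0.63 ± 0.20, and its close neighbour had 32778 and 24836, a difference of -0.62 ± 0.20. The remaining probe had 6814 and 16979 units and was 2.13-fold higher on day 6, a difference of 1.09 ± 0.20. It starts 20975 bases downstream of the brightest probe, was designed on a separate cDNA record, and has a stop codon in each sense frame, so it is not wholly coding. Whether it reads the same mature transcript was not tested. The agreeing probes, both with an open sense frame, are shown because they gave nearly the same difference.
Gmps, chr3:64144458-64147312, plus strand: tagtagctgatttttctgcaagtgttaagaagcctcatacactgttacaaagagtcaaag
Gmps, chr3:64144380-64144439, plus strand: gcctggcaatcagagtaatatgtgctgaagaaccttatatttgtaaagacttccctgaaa

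The isoforms that begin the AMP branch differed in opposite directions. Adss, the form expressed in most tissues, had 37751 units on day 0 and 20358 on day 6 and was 2.16-fold lower. Adssl1, the form known from muscle, had 1036 and 21748 units, a difference of 4.17 ± 0.21, the highest of the purine lists. Gmpr, which turns GMP back into IMP, was 2.15-fold lower, and its relative Gmpr2 had a difference of 0.31. The list of the AMP and GMP branches holds 8 measured genes, the members Adsl, Impdh1, Impdh2 and Gmps among them. In it, 4 passed 2-fold downward and 1 upward, and the median was -1.04.

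Enzymes that make PRPP lay within 2-fold by their brightest probes. Prps1, the main PRPP synthetase, had 78444 and 53012 units, a difference of -0.79 ± 0.20, and Prps2 had -0.15 ± 0.20 by its brightest probe and -0.76 by the other. Of the proteins that associate with these enzymes, Prpsap1 had a difference of -0.95 and Prpsap2 of 0.08. The list median was -0.47, and -0.75 with normexp background correction or with no background subtraction. None of the 4 measured genes of this step passed 2-fold in either direction. Enzymes of purine breakdown included some of the largest differences near the pathway. Ada, which deaminates adenosine, had 8736 units on day 0 and 1150 on day 6 and was 8.87-fold lower. Nt5e, a cell surface enzyme that releases adenosine from AMP and is also known from fibroblasts, had 4347 and 199 units and was 25.5-fold lower, and its other probe, with 117 units on day 0 and not well above background on day 6, was at least 1.61-fold lower. Pnp, which frees hypoxanthine and guanine, the substrates of Hprt, was 2.25-fold lower, with 26670 and 13809 units. Nt5m, a mitochondrial nucleotidase, was 2.30-fold higher. Uox was well above background on day 0 only and at least 1.56-fold lower. Among the 9 measured breakdown genes, 4 counted as lower, Uox among them by a value below background, and 1 as higher. Over the purine lists together, 22 genes that are no members were measured, and their median was -0.69. Of them, 7 counted as lower by 2-fold or more, Uox again among them by a value below background. As higher counted 2, and the shares of all measured genes were 20.9% and 20.1%.

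**Figure D4:**
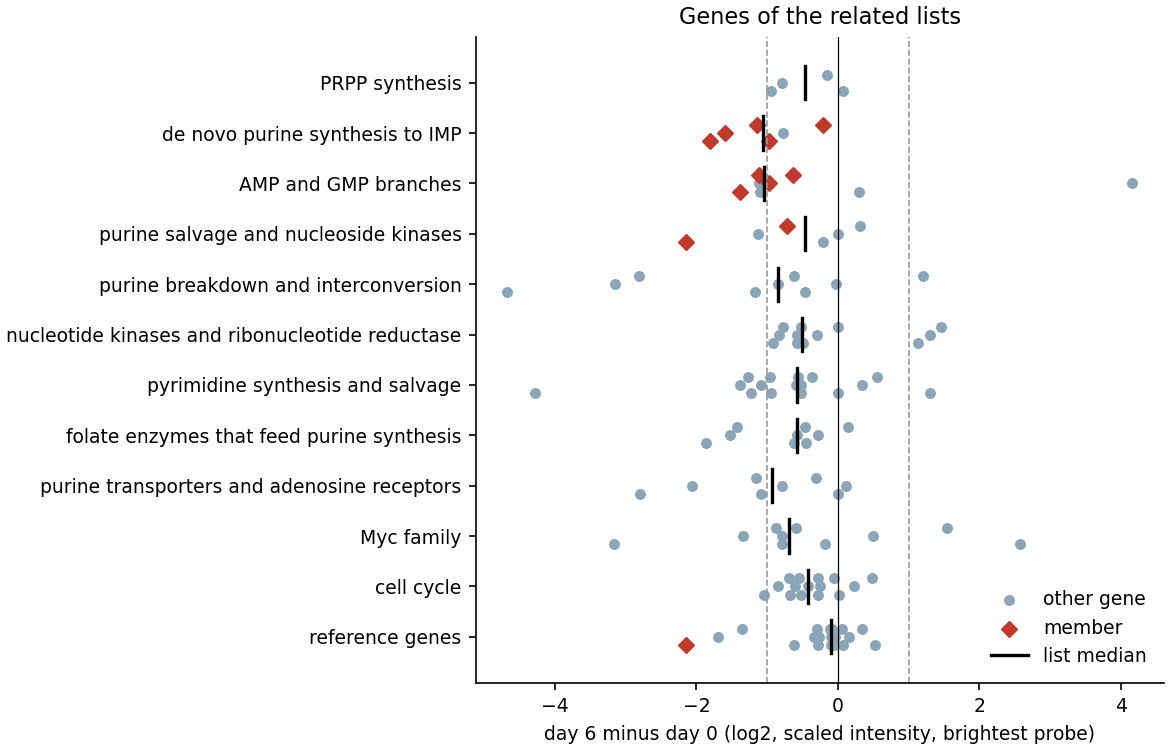
Day 6 minus day 0 difference in scaled log2 intensity of each measured gene of 12 lists, by its brightest probe, with members as red diamonds, other genes as circles and the list median as a line. Dashed lines mark 2-fold. The de novo and the AMP and GMP lists have medians of -1.06 and -1.04, and the reference genes of -0.10. Uox (-2.81) and Upp1 (-4.29) are drawn at day 6 values that are not well above background.

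Folate enzymes give the purine ring its single-carbon units. Mthfd1, a cytosolic enzyme that makes the formyl donor, had 64054 and 25981 units and was 2.88-fold lower. Shmt1 and Fpgs were 2.68-fold and 3.66-fold lower. This made 3 of 9 measured folate genes, with 0 past 2-fold upward, beside 20.9% and 20.1% of all measured genes. Nucleoside and adenosine proteins of the membrane were also lower in part. The transporters Slc29a1, Slc29a2 and Slc28a3 were 6.93-fold, 2.12-fold and 2.24-fold lower and the receptor Adora2b 4.20-fold lower. This made 4 of 8 measured genes, with 0 higher. Slc28a3 (326 and 170 units) and Adora2b (546 and 152) were dim, with software errors of 0.27 and 0.28. Among nucleotide kinases and ribonucleotide reductase subunits, 0 of 12 passed 2-fold downward and 3 upward. Guk1, which phosphorylates GMP, had a difference of -0.58, and Rrm2, a subunit of the reductase of dividing cells, had -0.57. The mitochondrial kinases Ak3 and Ak4 and the reductase subunit Rrm2b were 2.76-fold, 2.20-fold and 2.47-fold higher, Rrm2b by dim signals of 179 and 515 units.

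Pyrimidine genes, the parallel route, had a median of -0.58. Of 16 measured, 5 passed 2-fold downward and 1 upward, beside 20.9% and 20.1% of all measured genes. Cad, which carries its first steps, had 84814 and 51116 units, a difference of -0.95 ± 0.20. Dhodh and Umps, the enzymes that finish the pyrimidine ring and make UMP, were 2.13-fold and 2.34-fold lower, Dtymk and Dut, which serve thymidine nucleotides, 2.40-fold and 2.62-fold lower, and Upp1, well above background on day 0 only, at least 4.29-fold lower. The probes of Umps disagreed in size, since the other gave a difference of -0.39. Cda was 2.46-fold higher, by dim signals of 256 and 737 units. Whether the purine medians differ from the pyrimidine median was not tested. Myc factors are known to act on genes of nucleotide synthesis, and their part in the differences here was not tested. Myc had 23231 units on day 0 and 3014 on day 6, a difference of -3.17, Mycn had 192356 and 88340 and was 2.54-fold lower, and Mycl and Mxd4 were 5.95-fold and 2.91-fold higher. The probes of Mxd4 ranged from 0.15 to 1.77, and those of Myc from -3.17 to -2.44. Cell cycle genes differed by less than 2-fold in 14 of 15 cases, with a median of -0.42, and Mcm5, a part of the replicative helicase, was 2.06-fold lower.

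Among the reference genes, which are chosen for assays because they tend to be constant, Hprt had the lowest difference of 19 measured. Actb and Tbp had differences of -0.09 and -0.28, and no probe was named for Gapdh. Polr2a, a subunit of RNA polymerase II, was 3.25-fold lower, with 904 and 325 units. In the list, 3 of 19 passed 2-fold downward, Hprt and Polr2a among them, and 0 upward, and the median was -0.10. Hprt's probe was 1 of 157 with at least 9 spots used on each array and signal well above background on either, of which 20 had a difference below that of Hprt and 29.3% passed 2-fold downward.

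In promoter windows from RefSeq (GRCm38.p6, 250 bases before to 50 after each start), the Myc-type E-box CACGTG, which reads the same on both strands, was present for Paics, Atic and Impdh2. This made 3 of 10 members, against 7.15% of all 32851 windows and 11.2% of the 11849 measured genes that had a window. The differences of Paics, Atic and Impdh2 were -0.21, -1.81 and -1.11. A match is a description of the letters and not of binding, and a link between the motif and the differences was not tested.

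**Figure D5:**
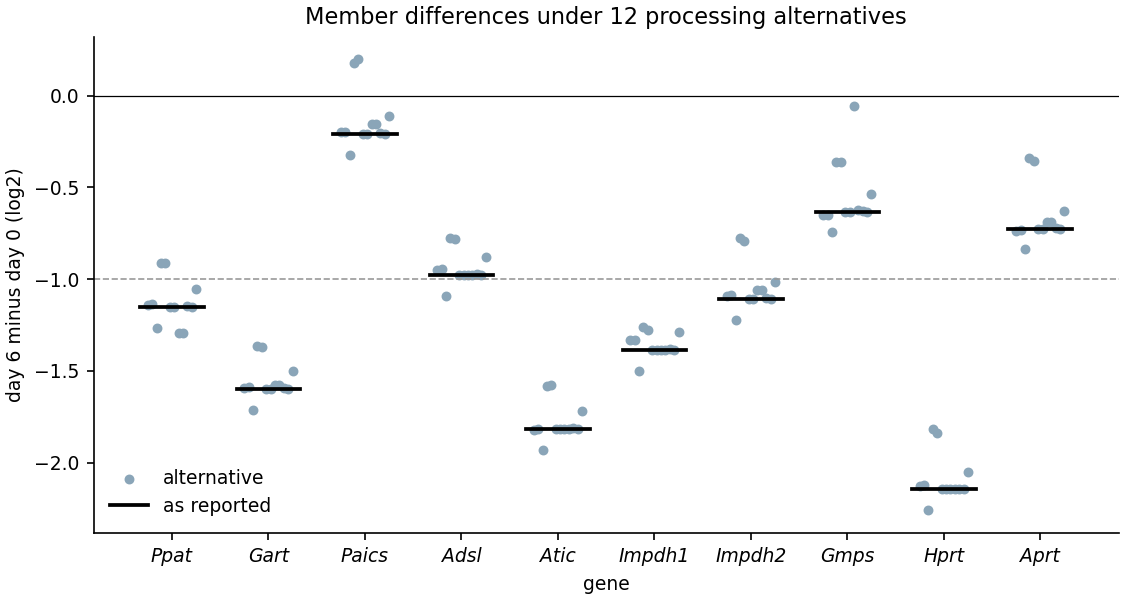
Day 6 minus day 0 difference (log2) of each member gene as reported (line) and under 12 processing alternatives (points), with a dashed line at 2-fold lower. Hprt, Gart, Atic and Impdh1 lie below the dashed line in every setting run, and Paics crosses 0.

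Hprt ranged from -2.26 to -1.81 over the alternatives and stayed at least 2-fold lower in 12 of 12, as did Gart, Atic and Impdh1. Hprt, Atic and Impdh1 each have 1 probe, well above background on both arrays. The settings for filter, probe averaging and dim signals therefore could not change their values. Ppat and Impdh2 were at least 2-fold lower in 10 of 12, and came to -0.91 and -0.77 with quantile normalization. Adsl passed 2-fold in 1 of 12 and Aprt and Gmps in 0 of 12. With quantile normalization, Adsl, Aprt and Gmps came to -0.78, -0.34 and -0.36. Every member was less lowered, or in the case of Paics raised, with that setting and in the authors' value table.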

How the data were processed

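Total RNA was labelled with Cy3 and read on 1-colour Agilent arrays of design 014868, per the labels and the file headers. The deposited scanner files, made with Feature Extraction 9.5.3.1 per the file headers, give an intensity after background subtraction and detrending, and its error. Probe positions are in mm7. The authors also deposited a log2 value table, whose columns had the same median (8.53) and whose processing steps the sources used here do not state.

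Spots of control probes or called outliers were dropped. Log2 intensities were averaged over the spots of a probe, and each array's 75th percentile was subtracted. Probes well above background on at least 1 array were used (28378 probes, 14966 genes), and named through RefSeq symbols and accessions. Saturated spots were kept, and no member was saturated. With 1 array a group no test was made, and genes were counted at 2-fold. Named were all members, genes of the related lists at least 2-fold apart, a few fixed genes of each list, and the neighbours, except 1 gene that is not reported here. The members and lists were chosen with earlier results of these data known. Steps were checked on simulated data. Analyses used Python 3.11.15, pandas 2.3.3, R 4.3.3 and limma 3.58.1 (normexp with an offset of 50). Both arrays lay on 1 slide, so array position and group cannot be told apart. 11 alternatives were fixed and 1, scaling on the reference genes without Hprt, was added after the data were seen.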

Additional observations from a re-analysis of the deposited data

How the results depend on the processing

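The count of members at least 2-fold lower ranged from 4 (quantile normalization and the authors' deposited value table) to 7 (median scaling), and among 120 member values the sign turned in 2, both for Paics (0.18 and 0.20, with the same 2 settings). Of 144 list medians, 16 moved further than the software error (median over the genes of the list). With quantile normalization the medians were -0.77 for the AMP and GMP branches, -0.84 for the de novo route, -0.25 for salvage, -0.30 for nucleotide kinases and -0.097 for cell cycle. In the authors' table they were -0.79, -0.85 and -0.26 for the first 3 of these and -0.098 for cell cycle. The Myc family stood at -0.44 and -0.45 with the mean and the median of a gene's probes, and PRPP synthesis at -0.75 with normexp and -0.75 with no background subtraction. Purine breakdown stood at -0.62 with no filter and -0.64 with dim genes at their bound, and transporters and receptors, likewise unfiltered, at -0.64. For the others the cause was not tested; a filter or bound changes the genes or values used. Scaling to the array median took the all-gene median from -0.095 to -0.21. Gmps came to -0.054 with the mean of its probes. No paired analysis was possible because each group had 1 array.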

Other observations

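Because Hprt is used as a reference gene, the arrays were also set equal at Hprt. This shifts every difference by the same amount, that of Hprt itself, so the values below restate it and add no measurement. On that scale the median of all 14966 genes was 2.05 log2 units higher on day 6, with 81.7% of genes past 2-fold upward and 5.45% downward. The 18 other reference genes then had differences between 0.45 and 2.67, and 16 of them passed 2-fold upward. The 9 other members had differences from 0.33 (Atic) to 1.94 (Paics).

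A probe outside the group's rule, described in the files as similar to Aprt, had 4273 units on day 0 and 2911 on day 6, a difference of -0.78 ± 0.20, close to the -0.72 of the Aprt probe.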
